A study of Mus musculus with 2 samples.

Results

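The expression of 10 genes of the aryl hydrocarbon receptor and Nrf2 responses was followed in single satellite cells of regenerating mouse muscle. They were chosen by symbol, with earlier results of these data known. The receptor branch held Ahr, Arnt, Tiparp and Cyp1b1 (4 genes), and the Nrf2 branch Nfe2l2, Nqo1, Hmox1, Srxn1, Gclm and Txnrd1 (6 genes). All 10 were among the 32286 features of the deposited tables. Satellite cells, the stem cells of skeletal muscle, had been sorted 5 days after injury. They came from Pax3GFP/+ mice, in which a GFP allele reports the transcription factor Pax3, and from the muscles labelled biceps and recto femoris. The GFP+ (PAX3+) fraction and the GFP- (PAX3-) fraction each gave 1 droplet library, with 20000 cells loaded for each. The genotype field of both libraries reads wild-type although the titles give Pax3GFP/+, and all cells of both groups carried injury and the reporter allele alike. Age, sex, the kind of injury and the number of animals behind each library were not given in the sources used here.

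The aryl hydrocarbon receptor is a cytoplasmic sensor of planar aromatic ligands, held by Hsp90 until a ligand frees it to enter the nucleus, where it pairs with Arnt on DNA. Its targets include the cytochrome Cyp1b1, which oxidises xenobiotics, and Tiparp, an ADP-ribosyltransferase that acts back on the receptor. Nrf2, the product of Nfe2l2, is degraded through Keap1 until oxidants or electrophiles stabilise it. It then pairs with small Maf proteins and drives antioxidant genes, among them the quinone reductase Nqo1, the haem oxygenase Hmox1, the sulfiredoxin Srxn1, the modifier subunit of glutathione synthesis Gclm and the thioredoxin reductase Txnrd1.

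After filtering, 601 GFP+ and 2680 GFP- cells remained, of which 520 and 2479 were myogenic, with medians of 19082.5 and 14989 UMIs (unique transcript molecules) per cell. Pax7, the defining gene of satellite cells, stood at 210 CPM (UMIs of the gene per 1000000 UMIs of the group) in GFP+ and 148 CPM in GFP- myogenic cells. Macrophage-like cells made up 12.5% of GFP+ and 2.13% of GFP- cells. Each state below is a cluster named by leading genes. The Erfe-high state was led by Erfe (erythroferrone) and Atf3 and held 117 GFP+ cells (22.5% of myogenic cells) and 47 GFP- cells (1.90%). It was the shallowest myogenic state, with medians of 6345 and 3646 UMIs. There were 2 kept barcodes that occurred in both libraries. With 1 library per fraction there is no replicate and no test. Levels are CPM with exact 95% Poisson intervals, ratios carry exact conditional 95% intervals and shares exact binomial ones, and all of these cover counting error only. A gene was counted as higher or lower where it reached 10 CPM on at least 1 side, its ratio passed 1.5-fold and its counting interval lay on the same side of 1. Fewer transcripts per cell and fewer expressing cells cannot be told apart in a summed level.

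Upstream DNA is shown for the members with a window that stood higher in the Erfe-high state of both libraries. The bases come from RefSeq windows on GRCm38.p6, which covered 8 of the 10 members, and run 5′ to 3′ on the plus strand up to the first annotated exon. Capitals mark GCGTG, the core that the receptor and Arnt bind, the antioxidant response element cores TGACNNNGC and TGAGNNNGC, and TGANTCA, the AP-1 site, on either strand. The last pair of motifs was added after the windows had been read, and they overlap once in Srxn1. For Txnrd1 the second of its 3 windows is shown because it alone holds an antioxidant element, while the other two hold GCGTG only.
Tiparp, chr3:65528197-65528409: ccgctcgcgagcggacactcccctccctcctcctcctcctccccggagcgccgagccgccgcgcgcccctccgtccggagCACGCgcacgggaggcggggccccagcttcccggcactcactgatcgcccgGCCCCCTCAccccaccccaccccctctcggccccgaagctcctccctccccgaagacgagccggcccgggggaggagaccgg
Srxn1, chr2:152105274-152105515: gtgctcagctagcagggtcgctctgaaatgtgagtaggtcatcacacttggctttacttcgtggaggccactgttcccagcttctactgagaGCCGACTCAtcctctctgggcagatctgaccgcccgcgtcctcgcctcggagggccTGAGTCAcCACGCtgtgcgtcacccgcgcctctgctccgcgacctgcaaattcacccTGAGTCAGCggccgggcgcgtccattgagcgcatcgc
Arnt, chr3:95434140-95434387: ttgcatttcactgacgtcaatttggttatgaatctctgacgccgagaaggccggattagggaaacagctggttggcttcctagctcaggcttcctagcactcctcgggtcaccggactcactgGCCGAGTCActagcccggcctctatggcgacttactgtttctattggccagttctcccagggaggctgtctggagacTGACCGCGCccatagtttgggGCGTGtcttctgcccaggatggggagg
Txnrd1, chr10:82858956-82859178: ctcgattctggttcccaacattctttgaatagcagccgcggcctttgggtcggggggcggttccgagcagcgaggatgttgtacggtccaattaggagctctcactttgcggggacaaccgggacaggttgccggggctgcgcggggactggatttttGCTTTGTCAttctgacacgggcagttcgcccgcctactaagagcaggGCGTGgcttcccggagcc

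GCGTG occurred in the windows of 6 of the 8 members, and in 28.2% of all 32851 windows of 250 bases. TGACNNNGC was found for 4 members (10.2% of all windows) and TGAGNNNGC for 2, Srxn1 and Tiparp (14.4% of all windows). The longer receptor site TNGCGTG was in none of the 8 (4.10% of all windows). TGANTCA was found for Srxn1 alone among the members, at 2 places, and in 6.75% of all windows. Txnrd1 was counted where any of its windows held the motif, so its chance to hold one exceeded that of a single window. The Nqo1 window held none of these letters, and the Cyp1b1 window held GCGTG only. A match is a string of letters and was not tested for binding.

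On mm10 (GENCODE M21) Ahr lies at chr12:35497974-35535038, Arnt at chr3:95434388-95497240, Tiparp at chr3:65528410-65555518, Cyp1b1 at chr17:79701537-79715061 and Nfe2l2 at chr2:75675513-75704641. Nqo1 lies at chr8:107388225-107403206, Hmox1 at chr8:75093621-75100589, Srxn1 at chr2:152105516-152111376, Gclm at chr3:122245557-122270732 and Txnrd1 at chr10:82833951-82897712. All are protein-coding. Other annotated genes overlap Ahr, Arnt, Tiparp, Nfe2l2, Gclm and Txnrd1, for Ahr and Tiparp on the opposite strand only. No label or file header says whether reads were counted by strand, so some of these UMIs may belong to a neighbour. Nqo1, Hmox1, Srxn1 and Cyp1b1 have no overlapping gene.

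The first comparison asked whether the fractions differed in these genes. Summed over all myogenic cells they differed little: of 8 members that reached 10 CPM, 0 were counted as higher and 0 as lower in GFP+ cells, where 4.07% of 8003 genes were higher and 2.27% lower. The median log2 ratio of the 8 members was 0.23 against -0.09 over all genes tested. Nqo1 and Cyp1b1 were too low to be included.

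Of the receptor branch, Ahr stood at 15.5 CPM in GFP+ cells and 17.4 CPM in GFP- cells, a ratio of 0.894 (0.750 to 1.06). Arnt, the DNA-binding partner, stood at 42.0 and 32.4 CPM, 1.30-fold (1.16 to 1.45). Tiparp stood at 92.0 and 74.8 CPM, 1.23-fold (1.14 to 1.32). The intervals of Arnt and Tiparp lay above 1, but within 1.5-fold.

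In the Nrf2 branch Nfe2l2 stood at 93.9 CPM in GFP+ and 78.2 CPM in GFP- cells, 1.20-fold (1.12 to 1.29). Srxn1, which repairs overoxidised peroxiredoxins, was at 18.8 and 14.0 CPM, 1.34-fold (1.13 to 1.57). Txnrd1, which keeps thioredoxin reduced, was at 89.3 and 102 CPM, a ratio of 0.878 (0.817 to 0.943). Hmox1 (21.9 and 19.2 CPM, ratio 1.14, 0.979 to 1.32) and Gclm (26.4 and 29.3 CPM, ratio 0.902, 0.789 to 1.03) had intervals that held 1. Neither direction was common to the branch.

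Part of these differences sat in the Erfe-high cells. They held 7.36% of all GFP+ myogenic UMIs, but 45.7% of the Srxn1, 26.4% of the Tiparp, 24.5% of the Ahr and 16.0% of the Txnrd1 UMIs. Without them Tiparp was at 73.1 CPM in GFP+ and 73.4 CPM in GFP- cells, a ratio of 0.997 (0.917 to 1.08). Srxn1 turned to 11 against 13.3 CPM, a ratio of 0.828 (0.667 to 1.02), and Ahr stood at 12.7 against 17.2 CPM, a ratio of 0.734 (0.601 to 0.890). Arnt (1.21, 1.08 to 1.36) and Nfe2l2 (1.17, 1.08 to 1.26) stayed above 1, and Txnrd1 (0.799, 0.739 to 0.862) below it. Again 0 members were counted as higher (2.87% of 7941 genes) and 0 as lower (1.86%).

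**Figure D1:**
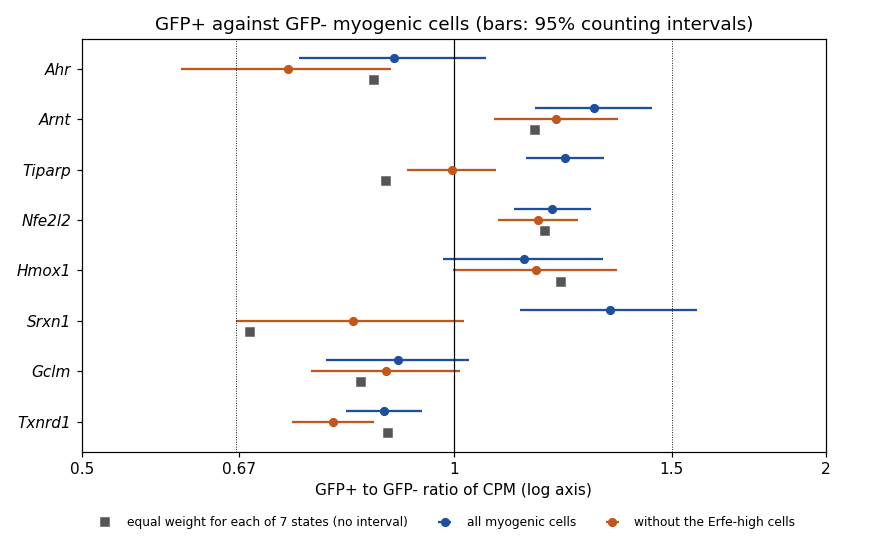
Ratio of CPM in GFP+ to GFP- myogenic cells (log axis) for the 8 members tested, over all myogenic cells, without the Erfe-high cells, and with each of 7 states given equal weight. Bars are 95% counting intervals and dotted lines 1.5-fold; Tiparp and Srxn1 lie above 1 over all cells (1.23 and 1.34) and at or below it in the other settings (0.997 and 0.828 without the Erfe-high cells, 0.880 and 0.683 with equal weights).

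With equal weight for each of the 7 myogenic states that had at least 20 cells in both libraries, Srxn1 had a ratio of 0.683 and Tiparp one of 0.880. Arnt and Nfe2l2 kept ratios of 1.16 and 1.19 and were nominally above 1 in 7 of 7 states, though the counting interval cleared 1 in only 1 state for Arnt and 2 for Nfe2l2. Txnrd1 was above 1 in 1 of 7 states, and its interval lay below 1 in 3. When every cell counted equally, by the mean of per-cell CPM, the shallow Erfe-high cells weighed more. The ratios were then 2.06 for Srxn1, 1.54 for Tiparp and 1.36 for Ahr. For each of these genes the direction depended on the weighting.

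Within states, some members differed in opposite directions between the fractions. In the Spp1-Fn1 state (74 GFP+ and 506 GFP- cells, led by matrix genes) Ahr stood at 15.4 CPM in GFP+ and 32.7 CPM in GFP- cells, a ratio of 0.472 (0.313 to 0.688). Txnrd1 was lower there too, at 54.5 against 89.0 CPM (0.613, 0.495 to 0.751), and Hmox1 higher at 29.3 against 16.3 CPM (1.80, 1.30 to 2.46). This made 2 of 8 members lower and 1 higher, where 5.08% of 7921 genes were lower and 3.28% higher. For Hmox1 a single GFP+ cell held 29 of the 57 UMIs, and without the top cell of each library the ratio was 0.988 (0.632 to 1.49).

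In the Plagl1-Gpc3 state (83 GFP+ and 614 GFP- cells) Hmox1 was lower in GFP+ cells, at 6.19 against 23.3 CPM (0.266, 0.131 to 0.487). Srxn1 was also lower, at 6.75 against 17.1 CPM (0.396, 0.200 to 0.713). These were 2 of 8 members lower and 0 higher, with 4.52% of 7894 genes lower and 3.69% higher. The top cell mattered less here, since without it Hmox1 had a ratio of 0.253 and Srxn1 one of 0.312. 

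In 3 further states 0 of 8 members were counted in either direction. The genes higher and lower there were 5.27% and 4.26% in the Chodl-Itih5 state, 5.32% and 5.71% in the cycling-like state and 4.22% and 6.86% in the Ccnb2-Cenpa state. In the Myog-Mymk state 1 of 6 members was higher (5.23% of genes) and 0 were lower (7.02%). It was Hmox1, at 1.51 (1.03 to 2.17), and 1.05 (0.660 to 1.62) without the top cell of each library. In the contractile state 0 of 6 were higher (5.16%) and 1 was lower (5.27%), Txnrd1, at 0.599 (0.358 to 0.950). Among the 7 GFP+ cells of the interferon state 1 of 7 members was higher (5.53%), Nfe2l2 at 1.81 (1.10 to 2.92), and 0 were lower (4.40%). In the Erfe-high state 1 of 8 was lower (2.94%), Srxn1 at 0.643 (0.429 to 0.984), and 0 were higher (2.58%). In macrophage-like cells 3 of 8 were lower (16.8%), Arnt, Hmox1 and Srxn1, and 0 were higher (4.66%).

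**Figure D2:**
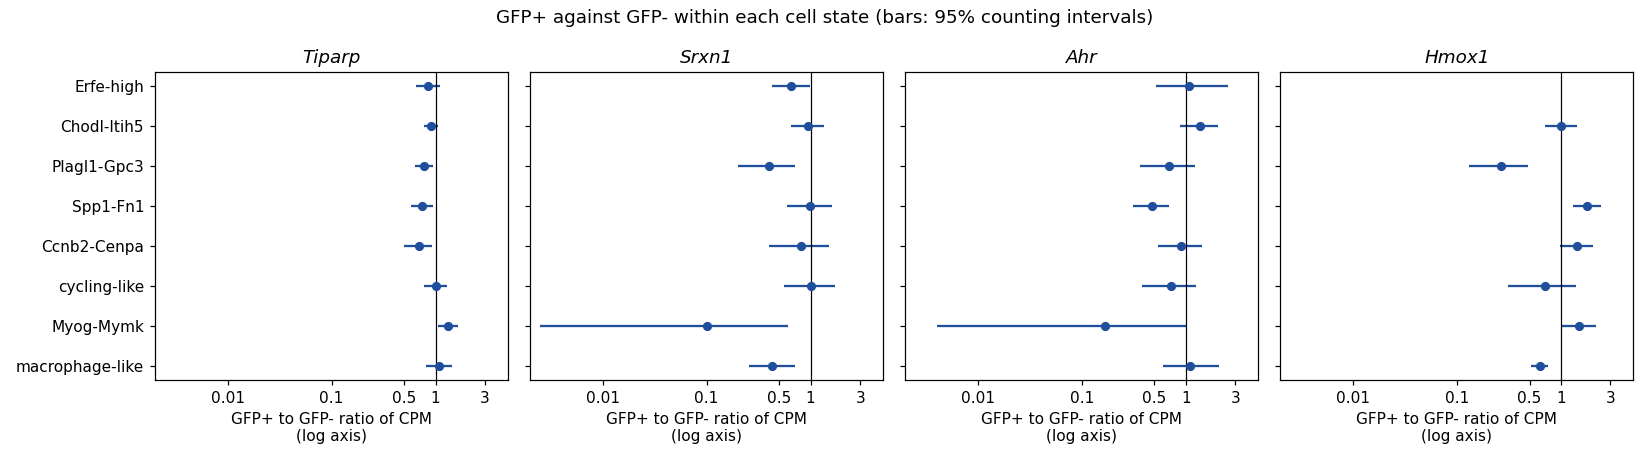
GFP+ to GFP- ratio of CPM (log axis) of Tiparp, Srxn1, Ahr and Hmox1 within each of 8 cell states, with 95% counting intervals; states with 0 UMIs in a library are left out. Hmox1 lies above 1 in the Spp1-Fn1 state (1.80) and below it in the Plagl1-Gpc3 state (0.266), while Ahr is lowest, among states with more than 1 GFP+ UMI, in the Spp1-Fn1 state (0.472).

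Larger differences than between the fractions were seen between cell states. Of the 10 members, 7 (Ahr, Arnt, Tiparp, Nfe2l2, Srxn1, Gclm and Txnrd1) had their highest myogenic level in the Erfe-high state of both libraries, among states with at least 20 cells in the library. In the interferon state, with 7 GFP+ cells, Nfe2l2 stood at 134 CPM (88.0 to 194), against 127 CPM (103 to 155) in GFP+ Erfe-high cells. The Erfe-high interval overlapped that of the next state for Arnt, Nfe2l2 and Gclm in both libraries and for Ahr and Txnrd1 in the GFP- library, and lay apart from it in both for Tiparp and Srxn1. Of the 8 members that reached 10 CPM these are 7, and of all 8003 such genes 1110 (13.9%) were highest in that state of both libraries. The members were chosen with earlier results of these data known, so these shares are a description and no test. Hmox1 and Nqo1 were not highest there, and Cyp1b1 was near 0 throughout. Cells of 1 library share their source, and 3 members (Tiparp, Hmox1 and Srxn1) were among the genes used for clustering, so the state differences are descriptions. With all members and listed genes left out of the clustering the count was again 7.

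Against the other myogenic cells of the same library, 5 of 8 members were higher in Erfe-high cells of each library and 0 were lower. Over all genes 19.7% were higher and 26.0% lower in GFP+ cells, and 12.7% higher and 14.1% lower in GFP- cells. The 5 were the same in both, Ahr, Arnt, Tiparp, Srxn1 and Txnrd1, which takes in each receptor-branch gene measured above 10 CPM. The median log2 ratio of the 8 members was 1.15 in GFP+ and 1.10 in GFP- cells, against -0.13 and -0.10 over all genes.

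Srxn1 had the largest ratio of the members. Its level was 116 CPM (93.6 to 143) in GFP+ and 181 CPM (125 to 253) in GFP- Erfe-high cells, against 11 and 13.3 CPM in the other myogenic cells. The ratios were 10.6 (7.90 to 14.1) and 13.6 (9.35 to 19.3), and 1.54% and 1.93% of the genes tested had a higher one. The GFP- value rests on 34 UMIs in 11 of 47 cells, and the GFP+ value on 90 UMIs in 45 of 117 cells.

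Tiparp stood at 330 CPM (291 to 373) in GFP+ and 389 CPM (305 to 489) in GFP- Erfe-high cells, against 73.1 and 73.4 CPM elsewhere in the myogenic class. The ratios were 4.51 (3.90 to 5.21) and 5.30 (4.14 to 6.69). Ahr followed in GFP+ cells with 51.8 against 12.7 CPM (4.09, 2.79 to 5.89), and had 48.0 against 17.2 CPM in GFP- cells (2.78, 1.27 to 5.31), there from 9 UMIs. Arnt was at 80.2 and 69.3 CPM, ratios of 2.06 (1.55 to 2.70) and 2.15 (1.14 to 3.69). Txnrd1 was at 194 and 171 CPM, ratios of 2.40 (2.0 to 2.86) and 1.68 (1.15 to 2.38).

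The other Nrf2 genes were closer to the remaining myogenic cells. Nfe2l2 itself stood at 127 and 101 CPM, ratios of 1.39 (1.12 to 1.71) and 1.30 (0.780 to 2.03). Gclm was at 34.9 and 53.3 CPM, ratios of 1.36 (0.878 to 2.03) and 1.83 (0.874 to 3.37). Hmox1 had 11 UMIs in GFP+ Erfe-high cells (14.2 against 22.5 CPM, 0.632, 0.311 to 1.15). In GFP- Erfe-high cells it had 0 UMIs, against 19.3 CPM in the other myogenic cells, with an interval of the ratio from 0 to 1.02, so that a difference was not detectable at this depth. Nqo1 had 1 UMI in GFP+ and 0 in GFP- Erfe-high cells.

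Depth differed between the states, so each cell was also thinned to 2000 UMIs. Tiparp was then seen in 36.8% of 117 GFP+ Erfe-high cells and 34.1% of 44 GFP- ones, against 14.1% and 13.4% of other myogenic cells. The corresponding shares were 20.5% and 18.2% against 2.05% and 2.75% for Srxn1, and 29.1% and 25.0% against 16.1% and 16.1% for Txnrd1. For Ahr they were 11.1% and 9.09% against 5.63% and 3.66%. Unthinned, Srxn1 was seen in 38.5% of GFP+ Erfe-high cells and 17.1% of the other GFP+ myogenic cells. The thinned ratio of levels was smaller for Ahr in GFP+ cells, 1.73 in place of 4.09.

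When Erfe-high cells were instead those with at least 3 Erfe UMIs and 300 Erfe CPM, 55 GFP+ and 22 GFP- cells qualified, 52 and 9 of them from the cluster. Ahr then had a ratio of 2.35 in GFP+ cells, and Srxn1 one of 6.90 and Tiparp one of 3.32 in GFP- cells. Hmox1 was then counted as lower in GFP+ cells, at 0.22-fold, with no share of all genes taken for this definition. Erfe itself stood at 596 CPM in the GFP+ and 336 CPM in the GFP- cluster, against 16.5 and 9.81 CPM in the other myogenic cells.

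Immediate-early and dissociation-stress genes were high in the same state. The 17 genes of that list summed to 22012 CPM in GFP+ and 21180 CPM in GFP- Erfe-high cells, against 3422 and 2534 CPM in the other myogenic cells. In each library 16 of 17 were higher, where 19.7% of all genes were in GFP+ and 12.7% in GFP- cells. Atf3, a leading gene of this cluster, reached 815 and 735 CPM there, 25.4-fold and 49.3-fold, and Fos 4.19-fold and 9.19-fold. Their part in the member levels was not tested. In the GFP- library 8 endothelial-like cells had been set apart by their endothelial markers, so the 0 UMIs of all 8 such markers in the remaining GFP- Erfe-high cells follow in part from that rule. In the GFP+ library, where 0 cells were set apart, the 8 markers were also at 0. The 14 macrophage markers summed to 27.2 and 26.6 CPM. Pax7 was at its highest in this state, at 607 and 597 CPM.

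The Chodl-Itih5 state (101 GFP+ and 326 GFP- cells, with the next highest Pax7 level, 344 and 313 CPM) came second for Tiparp and Srxn1 in both libraries. Tiparp stood at 147 and 162 CPM there, 3.35-fold (2.61 to 4.35) and 2.76-fold (2.45 to 3.11) the level of the Spp1-Fn1 state. Srxn1 stood at 27.7 and 29.6 CPM, 2.56-fold (1.49 to 4.54) and 2.71-fold (2.04 to 3.61). In this comparison 3 of 8 members were higher in each library, with Txnrd1 as the third in GFP+ cells (1.58, 1.22 to 2.06) and Hmox1 in GFP- cells (1.92, 1.49 to 2.47), where 12.0% and 9.55% of genes were higher. Ahr was lower in GFP- cells (0.551, 0.414 to 0.725), the 1 member counted as lower, where 14.0% of genes were, and had a ratio of 1.59 (0.963 to 2.65) in GFP+ cells. The immediate-early list summed to 6058 and 4923 CPM here, against 2665 and 2382 CPM in the Spp1-Fn1 state, and its part was not tested.

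Ahr and Srxn1 were low in differentiating cells, the Myog-Mymk and contractile states together, which express the fusion and sarcomere programme. In GFP+ cells both had 1 UMI, so that their ratios to the other myogenic cells without the Erfe-high ones were 0.037 (0.00093 to 0.211) and 0.043 (0.00107 to 0.244). In GFP- cells, where the counts were larger, they were 0.209 (0.139 to 0.303) and 0.407 (0.290 to 0.558). These were the 2 of 8 members counted as lower in each library, a count near the share over all genes (23.2% and 22.5%). In each library 0 members were higher, where 14.0% and 11.4% of genes were. Arnt (1.06 and 0.874) and Gclm (0.995 and 0.868) stood near 1.

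In the cycling-like state (31 GFP+ and 241 GFP- cells) Hmox1 was lower than in the other myogenic cells without the Erfe-high ones, at 7.63 and 10.8 CPM, ratios of 0.310 (0.140 to 0.601) and 0.515 (0.40 to 0.654). It was the 1 of 8 members counted as lower in each library, a count near the share over all genes (11.9% and 10.6%). Txnrd1, also a supplier of reduced thioredoxin for DNA synthesis, was higher, at 118 and 136 CPM, with ratios of 1.55 (1.28 to 1.87) and 1.45 (1.34 to 1.55). It was the 1 of 8 members counted as higher in GFP+ cells, again near the share over all genes (14.8%). The GFP- value missed 1.5-fold, so 0 members were higher there, where 13.7% of genes were.

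**Figure D3:**
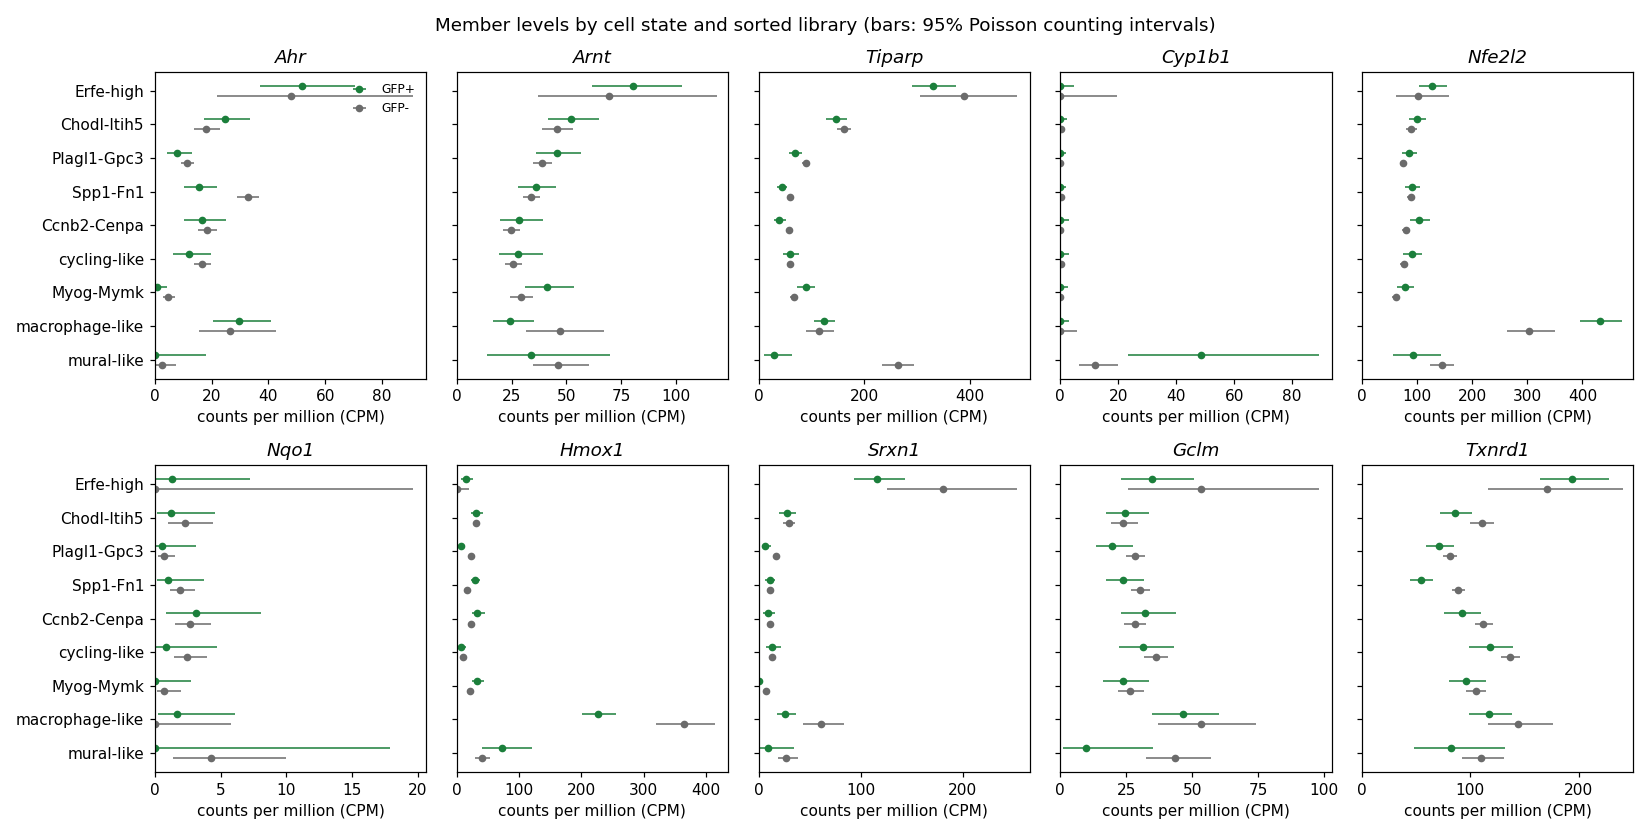
Level of each of the 10 members (CPM, linear axes that differ between panels) in 7 myogenic and 2 other cell states, GFP+ in green and GFP- in grey, with 95% Poisson counting intervals. Ahr, Arnt, Tiparp, Srxn1 and Txnrd1 peak in the Erfe-high state, Nfe2l2 and Hmox1 in macrophage-like cells, and Cyp1b1 in the mural-like cluster.

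Outside the myogenic class the members were ordered otherwise. Macrophage-like cells had the highest Nfe2l2, at 433 CPM (396 to 472) in GFP+ and 304 CPM (262 to 349) in GFP- cells, 4.61-fold and 3.88-fold the myogenic level. Hmox1, by which macrophages break down haem, stood at 227 and 365 CPM, 10.4-fold (8.67 to 12.4) and 18.9-fold (16.3 to 21.9). A few cells carried most of it: 10 cells held 83.3% of the 270 GFP+ UMIs and 88.0% of the 233 GFP- UMIs. Gclm was 1.75-fold and 1.82-fold higher. In GFP+ cells 4 of 8 members were higher (25.0% of genes) and 1, Arnt, was lower (41.5% of genes, ratio 0.581, 0.385 to 0.847). In GFP- cells 5 of 8 were higher (23.2%) and 0 lower (27.1%).

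These cells supplied 52.4% of all GFP+ Hmox1 UMIs and 21.2% of the GFP- ones, so that a level over all sorted cells would mix in the macrophage share. Free RNA was small in myogenic cells: Lyz2, a macrophage gene, stood at 6.10 CPM in GFP+ and 2.71 CPM in GFP- myogenic cells, against 2196 and 513 CPM in empty droplets. Hmox1 itself stood at 47.2 and 25.0 CPM in those droplets, above its myogenic level. By 4 macrophage genes free RNA came to 0.267% and 0.607% of myogenic UMIs. This estimate pools all myogenic states. In Erfe-high cells Lyz2 stood at 6.47 CPM (2.10 to 15.1) in GFP+ and 21.3 CPM (5.81 to 54.6) in GFP- cells, the latter from 4 UMIs.

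Cyp1b1 was nearly absent from muscle stem cells. It had 0 UMIs in 520 GFP+ myogenic cells, which by the floor of 3 counts, not a binomial interval, allows a share of up to 0.577% of cells with a UMI, and 3 UMIs in 3 of 2479 GFP- ones, 0.0713 CPM. All 10 GFP+ UMIs and 14 of the GFP- UMIs lay in the cluster led by Rgs5, in 4 of 6 GFP+ and 7 of 118 GFP- cells, where the levels were 48.5 CPM (23.3 to 89.2) and 12.0 CPM (6.53 to 20.1). That cluster was called mural-like from its GFP- cells, of which 107 had Rgs5 UMIs. The 6 GFP+ cells had 0 Rgs5 and 0 Myh11 UMIs, and all 6 had Pdgfra, Dcn and Col1a1 UMIs, so the name does not hold for them. Pdgfra, a gene of fibro-adipogenic cells, was seen in 4 of the 7 GFP- cells with Cyp1b1 and in 7 of all 118. Rgs5 was likewise seen in 4 of those 7 cells with Cyp1b1, and Myh11 in 2 of them. Among the GFP- cells of this cluster 5 of 9 members were higher than in myogenic cells (28.0% of genes), Cyp1b1, Tiparp (3.52, 3.12 to 3.95), Hmox1, Nfe2l2 and Srxn1. Cyp1b1 passed the limit of 10 CPM only through its level in this cluster, so its place in both counts followed from that filter. Only Ahr was lower, from 3 UMIs (0.147, 0.0303 to 0.433), where 16.9% of genes were.

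Other canonical readouts of the receptor were at or near 0. Cyp1a1 had 0 UMIs in every state of both libraries, and Ahrr, the receptor's repressor, 1 UMI in all GFP- and 0 in all GFP+ cells. Nqo1, a target shared by both pathways, stood at 1.05 CPM (0.523 to 1.88) in GFP+ and 1.76 CPM (1.38 to 2.21) in GFP- myogenic cells, from 11 and 74 UMIs, a ratio of 0.596 (0.285 to 1.13). Empty droplets held 2.15 and 2.67 CPM. Nqo1 was seen in 1.92% and 2.82% of myogenic cells and in 2.67% and 0% of macrophage-like ones, too few for an order to be read. Tiparp, by contrast, was seen in 66.3% of GFP+ and 58.9% of GFP- myogenic cells.

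Of 57 other genes of the pathways, 45 reached 10 CPM in the comparison of the fractions. Of these 4 were higher in GFP+ myogenic cells (4.07% of all genes) and 1 was lower (2.27%), with a median log2 ratio of -0.11 against -0.09 over all genes. The higher ones were Gstp1, a glutathione transferase (165 against 61.5 CPM, 2.69, 2.53 to 2.86), the small Maf genes Maff (45.4 against 18.7 CPM, 2.43, 2.17 to 2.73) and Mafk (39.7 against 20.8 CPM, 1.91, 1.69 to 2.15), and Osgin1 (20.7 against 10.3 CPM, 2.01, 1.70 to 2.37). Gstp1 has near-identical copies in the genome, and its level is uncertain for that reason. The lower one was Tkt, a pentose phosphate enzyme (8.29 against 14.3 CPM, 0.578, 0.456 to 0.724). Without the Erfe-high cells Maff and Mafk no longer passed, which left 2 higher (2.87% of all genes) and 1 lower (1.86%).

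Of the other regulators, Nfe2l1, a relative of Nrf2, stood at 101 and 68.4 CPM (1.48, 1.38 to 1.59) and Sqstm1, which competes for Keap1, at 168 and 125 CPM (1.35, 1.27 to 1.42), both within 1.5-fold. Keap1, the Nrf2 inhibitor, was at 14.2 and 17.9 CPM (0.794, 0.661 to 0.947), Hsp90ab1, a chaperone of the receptor, at 3137 and 3756 CPM (0.835, 0.825 to 0.845), and Gclc, the catalytic partner of Gclm, at 31.2 and 37.6 CPM (0.829, 0.734 to 0.934). Gclc was highest of the myogenic states in the Spp1-Fn1 state, at 58.1 and 68.0 CPM, where Gclm was not.

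In Erfe-high cells, of all 57 other pathway genes, 12 of 44 tested were higher (19.7% of all genes) and 14 lower (26.0%) in the GFP+ library, and 8 of 47 higher (12.7%) and 10 lower (14.1%) in the GFP- library. Among the Nrf2 regulators 5 of 9 were higher and 0 lower in GFP+ cells, and 4 of 9 higher and 1 lower, Rbx1, in GFP- cells. The higher ones in both libraries were Maff 15.2-fold and 20.1-fold, Mafk 7.22-fold and 16.7-fold, Mafg 1.65-fold and 1.70-fold, and the autophagy adaptor Sqstm1 2.78-fold and 2.97-fold. Other lists held genes of both directions: of 7 glutathione genes tested in GFP+ cells 2 were higher and 2 lower, and of 6 iron and haem genes 2 were higher and 1 lower. Gstm1 (7.36-fold and 8.22-fold), Ephx1 (3.61-fold and 3.79-fold) and Fth1 (2.35-fold and 1.92-fold) were higher in both libraries. Lower in both were Hsp90ab1, Akr1b8 and Slc40a1, besides Pgd, Idh1, Txn1 and Prdx3. Of the genes that supply NADPH, the fuel of Txnrd1 and glutathione reductase, 4 of 4 tested were lower in GFP+ cells. In GFP- cells 2 of 5 were lower, and Taldo1, Tkt and Me1 did not pass. Below 10 CPM and so not tested were G6pdx in both libraries and Tkt in GFP+ cells, where Tkt had a ratio of 0.932 (0.332 to 2.12). Pgd had a ratio of 0.254 (0.0925 to 0.560) in GFP+ cells and 0 UMIs in GFP- Erfe-high cells, with a ratio of at most 0.581 by its interval against 33.9 CPM. Idh1 was at 0.410 and 0.112, the latter from 1 UMI. Txn1, the substrate of Txnrd1, was at 0.506 and 0.547, and Prdx3 at 0.409 and 0.451.

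Genes with the most similar pattern were taken by Pearson's r of log2(CPM + 1) over 19 sums of a library and state with at least 20 cells each, among genes that reached 20 CPM. For Tiparp they were Ccnl1 (r = 0.98), Ppp1r10 (0.95) and Maff (0.95), and for Srxn1 Ankhd1 (0.94), Klf4 (0.93) and Msl1 (0.91). Nfe2l2 was most like Pip5k1c (0.97), Hmox1 most like Slc30a1 (0.92), Arnt most like Crtc3 (0.91) and Ahr most like Iqgap2 (0.89). Among the members themselves r was 0.80 for Tiparp with Arnt, 0.77 for Tiparp with Srxn1 and 0.72 for Ahr with Srxn1, but 0.29 for Ahr with Tiparp. Within the Nrf2 branch it was 0.72 for Gclm with Txnrd1, 0.70 for Srxn1 with Txnrd1 and 0.69 for Gclm with Nfe2l2 and with Srxn1. For Nfe2l2 with Hmox1 it was 0.66. Over the 16 myogenic sums alone r was 0.90 for Tiparp with Arnt and 0.82 for Ahr with Srxn1. It was -0.15 for Nfe2l2 with Hmox1, so the likeness of these 2 genes rested on cells outside the myogenic class. Over the same sums r was 0.75 for Gclm with Txnrd1, 0.38 for Gclm with Nfe2l2 and -0.63 for Gclm with Hmox1. The sums share 2 libraries and differ in depth, so these values are descriptions.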

How the data were processed

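From each 3′ library the authors deposited UMI counts, not normalized, for every barcode, made with Cell Ranger 4 per the file headers. The submitters' processing notes name Cell Ranger, Seurat and mm10. No source used here gives the counting settings.

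A barcode was kept at 1000 or more UMIs, 500 or more genes and no more than 10% mitochondrial UMIs (604 GFP+ and 2683 GFP-), with 11889700 and 44125681 UMIs after 3 doublets were removed from each by scrublet in scanpy 1.11.5. At 0.112% the caller in effect did not work in the GFP- library. Both libraries were clustered together without integration (counts scaled to 10000, log transform, 2000 variable genes, 30 principal components, 15 neighbours, Leiden resolution 0.6). State names and the rule that set 8 endothelial-like cells apart (at least 3 endothelial markers, with Pecam1 or Cdh5) were made after the data were seen, and no cell type is the authors' own annotation.

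UMIs were summed by library and state and scaled to CPM. The ratio calculation was tested on simulated data. Alternatives were other weightings, filters, scalings (edgeR 4.0.16 TMM factors), definitions and clusterings.

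The members and lists were chosen with earlier results of these data known. Named genes were the 10 members, up to 3 per list with the largest ratio among genes of at least 10 CPM, 5 fixed genes and, per member with at least 100 UMIs, up to 3 genes most alike; other listed genes were named after their values were seen.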

Additional observations from a re-analysis of the deposited data

Results flagged for a closer look

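The GFP+ to GFP- ratio of 3 members went opposite ways in different cell states, with counting intervals clear of 1 on both sides. With 1 library per fraction the difference between states was not tested. Hmox1 had ratios of 1.80 in the Spp1-Fn1 and 1.51 in the Myog-Mymk state, but 0.266 in the Plagl1-Gpc3 state and 0.624 in macrophage-like cells. Without the top cell of each library it came to 0.988, 1.05 and 0.253 in the 3 myogenic states, a setting chosen after seeing the data. Tiparp had a ratio of 1.32 in the Myog-Mymk state, against 0.745, 0.774 and 0.689 in the Spp1-Fn1, Plagl1-Gpc3 and Ccnb2-Cenpa states. Arnt had 1.41 in the Myog-Mymk state and 0.520 in macrophage-like cells.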

How the results depend on the processing

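No paired analysis was possible because each fraction has 1 library. Of the GFP+ to GFP- member ratios under the alternatives, 84 stayed within the counting interval of the value over all myogenic cells and 20 moved out of it. For Erfe-high against other myogenic cells 26 stayed and 6 moved in GFP+ cells, and 21 stayed and 7 moved in GFP- cells. No ratio counted as higher or lower there changed direction. Between the fractions 0 members were counted, so no such change could be recorded. There the ratios of Srxn1 (0.683 to 2.06), Tiparp (0.880 to 1.59) and Ahr (0.734 to 1.36) crossed 1. So did those of Hmox1 (0.798 to 1.22) and Txnrd1 (0.799 to 1.07). Arnt and Nfe2l2 stayed above 1 and Gclm below it. In GFP- Erfe-high cells Gclm, which was not counted, ranged from 0.647 to 1.83. The cause of these moves was not tested. The count of members higher in GFP+ cells went from 0 to 3 with the mean of per-cell CPM (Arnt, Tiparp and Srxn1). That setting counted by fold alone, without the counting interval that the count of 0 required. With cells thinned to 5000 UMIs the count was 2 (Tiparp and Srxn1), and at a lower fold limit also 2 (Arnt and Srxn1). The share of all genes was not counted in these settings. TMM factors gave 1.38 for Srxn1 and 0.908 for Txnrd1. The count of other pathway genes higher in GFP+ cells was 2 without the Erfe-high cluster and 1 among genes of at least 50 CPM, where 0 were lower. With Erfe-high cells defined by Erfe UMIs, 1 member was lower in GFP+ cells. Neither there nor at 50 CPM was the share of all genes counted. Endothelial-like cells kept in their clusters, a setting chosen after seeing the data, gave Srxn1 a ratio of 8.56 and Nfe2l2 one of 1.97 in GFP- Erfe-high cells. The GFP- Erfe-high group holds 187632 UMIs, so that the floor of 3 UMIs amounts to 16.0 CPM there. The exact Poisson interval of a count of 0 reaches 19.7 CPM in that group.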
